A study of Homo sapiens with 21 samples.

Results

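The genes described here are 36 genes of cholesterol and lipid synthesis, named by symbol: 7 enzymes of the mevalonate pathway, 11 enzymes that turn its product into cholesterol, 5 regulators of the sterol-responsive transcription factors, 2 sterol carriers, 7 enzymes of fatty acid synthesis and 4 genes linked to the liver X receptor (LXR), a sensor of excess sterol. Of the 57820 rows of the deposited expression table, 35 carried one of these symbols. No row carried the symbol ACACA, and the expression of that gene is not analysed here. All 35 genes found reached the expression filter, 1 FPKM or more in 3 or more libraries, and were tested with 16090 genes in all. FPKM is a fragment count divided by transcript length and by the library's mapped fragments, so levels can be set beside each other between genes.

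The study used NLF, an established human neuroblastoma cell line, and measured RNA in 21 libraries, 3 in each of 7 groups. The parental line carried no guide RNA. The control line (sgCON) had received Cas9 with a scrambled guide by lentivirus, and 2 further lines (YAPKO1 and YAPKO2) had been edited at YAP1, which encodes a transcriptional coactivator of the Hippo pathway. The sgCON, YAPKO1 and YAPKO2 lines were each given either solvent (DMSO) or 20 nM trametinib, an inhibitor of the kinases MEK1 and MEK2, for 72 h, starting 24 h after plating. All cells grew in medium with 10% serum, which itself supplies cholesterol and fatty acids. The parental libraries are labelled as DMSO-treated, whereas the design text names a treatment only for the other lines. The DMSO content is 0.01% in the sample labels and 0.1% in the design text. No source used here says whether the 3 libraries of a group came from separate cultures, and every p-value therefore rests on the spread among the libraries of a group, which may be technical. Each line is a single derivation.

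YAP1, the edited gene, stood at 25.6 FPKM in sgCON with DMSO, 11.7 in YAPKO1 and 2.89 in YAPKO2 (means of 3), a log2 change of -1.12 and -2.95 against sgCON, so YAPKO1 kept more YAP1 RNA than YAPKO2. DUSP6 and ETV4, targets of the ERK pathway below MEK, fell with trametinib in every line, with log2 changes of -2.87 to -3.35 and of -4.05 to -5.34. Of 8 adrenergic neuroblastoma markers, 7 reached the filter (TH did not), and 0 of 5 epithelial markers, 1 of 7 blood and endothelial markers (CD68) and 1 of 4 astrocyte markers (GFAP) did. The adrenergic sum lay at 237 to 250 FPKM in the parental line, 229 to 238 and 258 to 286 in sgCON, 239 to 309 and 334 to 380.0 in YAPKO1, and 330.0 to 364 and 409 to 551 in YAPKO2, each with DMSO and trametinib. The blood and endothelial sum was 9.72 to 13.1 in the parental line and at most 2.46 elsewhere, and the astrocyte sum was at most 3.08. All 6 fibroblast markers on the list reached it, and their summed level lay at 824 to 891 FPKM in the parental line, 425 to 513 in sgCON with DMSO, 447 to 575 in sgCON with trametinib, 198 to 479 and 174 to 260 in YAPKO1, and 356 to 590 and 183 to 334 in YAPKO2 with DMSO and trametinib. Protein-coding genes held 29.9 to 33.8% of summed FPKM in the parental line, 35.9 to 42.4% and 41.2 to 52.4% in sgCON, 46.6 to 58.2% and 56.7 to 58.6% in YAPKO1, and 37.3 to 47.2% and 45.6 to 60.5% in YAPKO2, with DMSO and trametinib. Short non-coding genes held 19.4 to 36.4% over all libraries. The part of these markers and shares in the results below was not tested, and in bulk RNA fewer cells of a kind and less RNA per cell cannot be told apart.

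Libraries also differed in how their levels depended on the GC content of transcripts. This GC trend is given as the log2 deviation of GC-rich genes (at least 56.6% GC) minus that of GC-poor genes (at most 41.7% GC), each gene taken from its mean over all libraries. It ran from -0.60 to -0.38 in the parental and sgCON DMSO libraries and from -0.28 to -0.15 in sgCON with trametinib. In YAPKO1 it was -0.40, -0.22 and 0.68 with DMSO and 0.38, -0.07 and 0.52 with trametinib. In YAPKO2 it was 0.09, 0.62 and 0.17 with DMSO and 0.70, 1.34 and -0.25 with trametinib. The GC trend was therefore higher in most knockout libraries than in sgCON, and YAPKO1 DMSO library 3 stood apart from its group. The 3 YAPKO2 trametinib libraries were spread widely, with library 2 the highest of all 21 and library 3 farthest from the other two. Values corrected for the GC trend are given beside the results that it touches.

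Cholesterol is built from acetyl-CoA through mevalonate and squalene. When membrane sterol is low, the escort protein SCAP carries the membrane-bound SREBP factors (encoded by SREBF1 and SREBF2) to the Golgi apparatus, where proteases release them to enter the nucleus and switch on the genes of sterol and fatty acid synthesis. When sterol is plentiful, INSIG proteins hold SCAP back, and oxysterols activate LXR, which raises sterol export (ABCA1, ABCG1), the ubiquitin ligase MYLIP and SREBF1 itself.

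Promoter windows of 300 bases, 250 before and 50 after an annotated start, were found for 31 of the 36 genes in RefSeq sequence of GRCh38.p14 (41 windows). 5 of them are printed 5′ to 3′ because the results turn on these genes: SCD was lower and TM7SF2 higher with trametinib in all 3 lines, INSIG1 was lower with it in the knockout lines, MYLIP was lower in both knockout lines than in sgCON, and SREBF2 held the one match to the sterol element. Capitals mark the NF-Y motif CCAAT, on either strand, and, in SREBF2, the core of the sterol regulatory element.
SCD, chr10:100346983-100347282, plus strand: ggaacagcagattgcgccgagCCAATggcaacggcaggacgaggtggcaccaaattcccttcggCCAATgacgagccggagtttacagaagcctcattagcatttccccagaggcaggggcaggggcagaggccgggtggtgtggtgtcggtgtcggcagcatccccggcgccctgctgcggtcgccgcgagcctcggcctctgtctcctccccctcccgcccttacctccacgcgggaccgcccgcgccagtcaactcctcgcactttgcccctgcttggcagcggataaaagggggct
TM7SF2, chr11:65111622-65111921, plus strand: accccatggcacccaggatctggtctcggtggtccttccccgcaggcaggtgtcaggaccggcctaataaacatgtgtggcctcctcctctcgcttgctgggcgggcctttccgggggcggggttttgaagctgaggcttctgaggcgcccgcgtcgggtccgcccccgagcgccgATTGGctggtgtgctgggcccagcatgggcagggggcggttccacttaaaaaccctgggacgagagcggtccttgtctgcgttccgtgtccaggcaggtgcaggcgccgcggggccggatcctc
INSIG1, chr7:155297628-155297927, plus strand: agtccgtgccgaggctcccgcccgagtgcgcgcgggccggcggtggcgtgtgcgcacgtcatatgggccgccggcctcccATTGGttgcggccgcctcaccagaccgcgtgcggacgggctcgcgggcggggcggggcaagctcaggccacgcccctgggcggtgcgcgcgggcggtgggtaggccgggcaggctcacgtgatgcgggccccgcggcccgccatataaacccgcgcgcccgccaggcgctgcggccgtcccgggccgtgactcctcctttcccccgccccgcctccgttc
MYLIP, chr6:16128836-16129135, plus strand: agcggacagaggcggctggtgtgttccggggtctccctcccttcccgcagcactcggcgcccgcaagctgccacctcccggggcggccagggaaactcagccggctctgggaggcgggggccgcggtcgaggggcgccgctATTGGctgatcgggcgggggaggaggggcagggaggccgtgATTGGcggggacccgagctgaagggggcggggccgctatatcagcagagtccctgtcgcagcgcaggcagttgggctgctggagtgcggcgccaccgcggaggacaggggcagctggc
SREBF2, chr22:41832855-41833154, plus strand: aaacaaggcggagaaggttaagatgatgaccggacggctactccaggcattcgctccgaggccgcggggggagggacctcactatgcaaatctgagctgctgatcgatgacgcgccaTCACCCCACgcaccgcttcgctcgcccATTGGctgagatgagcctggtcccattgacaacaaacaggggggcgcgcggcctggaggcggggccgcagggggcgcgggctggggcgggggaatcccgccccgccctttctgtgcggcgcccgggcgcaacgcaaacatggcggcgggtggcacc
The element core searched, TCACNCCAC on either strand, was matched in 1 of 31 genes, SREBF2, 133 bases before the start. This was 1 of the 41 windows of these genes (2.44%), against 1.13% of all 35116 windows. Forms of the sterol element that differ from this core were not searched, so the search cannot show whether the other genes lack one. CCAAT was matched in 21 of 31 genes and 61.0% of their windows, against 34.6% of all windows. In SREBF2 a CCAAT match lay 106 bases before the start. In the SCD window CCAAT matches lay 229 and 186 bases before the start, in INSIG1 170, in TM7SF2 74, and in MYLIP 109 and 68. The motif CACGTG (E-box), also searched and not marked in the printed windows, was matched in 5 genes (ABCA1, INSIG1, LSS, SC5D and SCAP). These matches lay in 14.6% of the windows of the 31 genes, against 7.26% of all windows. The core bound by TEAD factors, the DNA-binding partners of YAP1 (CATTCC), was matched in 5 genes (EBP, FADS2, HSD17B7, PMVK and STARD4) and 12.2% of the windows, against 14.0% of all windows. The LXR motif DR4, a direct repeat with 4 bases between its copies, was searched only with both copies perfect. This perfect form was matched in 0 of the 31 genes and in 0.0199% of all windows. So rare a form would seldom be met in 41 windows, and imperfect repeats were not searched. The search therefore cannot show whether these genes lack a DR4 element, and ABCG1 had no window. All motif matches given here are matches of letters in short windows and describe no binding.

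With trametinib, SREBF1 and SCD were lower and TM7SF2 was higher in all 3 lines. Tests were made with limma on log2(FPKM + 0.5) over all 21 libraries, with calls made where p, adjusted by Benjamini-Hochberg over all genes, was under 0.05. On this scale the change of genes with low levels is understated. In sgCON, 1 of the 35 genes was higher and 5 were lower, where 5.22% of all genes were called (2.28% higher, 2.94% lower). The YAPKO1 line had 1 higher and 7 lower, where 7.86% of all genes were called (3.98% higher, 3.88% lower). The YAPKO2 line had 1 higher and 8 lower, where 20.1% of all genes were called (8.59% higher, 11.5% lower). Fitted on the groups compared alone, 8 genes were called in sgCON (2 higher, 6 lower), where 2649 of all genes were called in place of 840. In that setting 1 gene (SCD) was called in YAPKO1 and 3 in YAPKO2, beside 1.79% and 5.66% of all genes. The order of the lines by number of calls thus depends on which groups share the estimate of the spread. The median log2 change of the 35 genes was -0.15, -0.22 and -0.24 in sgCON, YAPKO1 and YAPKO2, against -0.00, -0.01 and -0.01 over all genes tested. The log2 change was below 0 in 25, 29 and 28 of the 35 genes. The shares of these genes called were 17.1%, 22.9% and 25.7%, and that in YAPKO2 lay nearest to its background. By role, the 11 sterol enzymes held TM7SF2 as the 1 higher gene in each line, beside 0, 4 and 2 lower genes in the order sgCON, YAPKO1, YAPKO2. The 7 mevalonate enzymes had 0 calls in sgCON and YAPKO1 and 2 lower in YAPKO2.

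SREBF1 (ENSG00000072310.12) encodes the SREBP that mainly drives fatty acid genes. Its level was 35.2, 28.6 and 25.7 FPKM in the 3 sgCON libraries with DMSO and 18.6, 14.1 and 16.5 with trametinib. In YAPKO1 it was 18.7, 14.4 and 24.5 with DMSO and 5.52, 9.71 and 12 with trametinib. In YAPKO2 it was 30.2, 25.9 and 26.1 with DMSO and 8.10, 11.3 and 8.19 with trametinib. Every trametinib library lay below every DMSO library of its line. In the order sgCON, YAPKO1, YAPKO2, the log2 changes were -0.84 ± 0.24 (SE), -1.07 ± 0.24 and -1.54 ± 0.24, with adjusted p of 0.0469, 0.00875 and 0.000175. In sgCON the call did not hold when any 1 of the 6 libraries was left out (adjusted p 0.0726 to 0.183), nor with a pseudocount of 0.1, no filter, no scaling, quantile normalization or the calibrated table (adjusted p 0.0531 to 0.0915). Fitted on the groups compared alone, the YAPKO1 call was lost (adjusted p 0.141). With GC correction the 3 changes were -0.95, -1.20 and -1.70, with adjusted p of 0.00861, 0.00115 and 1.45e-05.

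SCD (ENSG00000099194.5) encodes stearoyl-CoA desaturase, which makes oleate from stearate. It stood at 70.4, 72.9 and 71.2 FPKM in sgCON with DMSO and at 49.2, 52.6 and 47.6 with trametinib. In YAPKO1 it was 51.7, 55.5 and 58.2 with DMSO and 33.3, 31.0 and 35.4 with trametinib. In YAPKO2 it was 52.5, 55.3 and 55.8 with DMSO and 27.8, 32.5 and 25.3 with trametinib. The groups did not overlap in any line, and the spread within each was small. In the same order the log2 changes were -0.52 ± 0.09, -0.72 ± 0.09 and -0.93 ± 0.09, with adjusted p of 0.0016, 4.64e-05 and 1.5e-06. These 3 calls were kept under every alternative setting and without any single library.

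TM7SF2 (ENSG00000149809.10), a sterol C14 reductase of the later cholesterol pathway, moved the other way. It stood at 8.96, 9.78 and 9.09 FPKM in sgCON with DMSO and at 15.9, 17.7 and 15.6 with trametinib. In YAPKO1 it was 6.42, 5.42 and 10.1 with DMSO and 22.4, 14.5 and 18.0 with trametinib. In YAPKO2 it was 11.1, 12.4 and 13.0 with DMSO and 32.3, 38.9 and 22.7 with trametinib. No group overlapped its DMSO counterpart. The rise was 0.79 ± 0.20, 1.29 ± 0.20 and 1.3 ± 0.20 on the log2 scale, with adjusted p of 0.0278, 0.000535 and 0.00018. Without any 1 of the 6 sgCON libraries the sgCON call was lost (adjusted p 0.0633 to 0.105), as it was with no filter (0.0542), and the YAPKO1 call was lost with the groups compared alone (0.0541). With GC correction the rises were 0.67, 1.17 and 1.14, and all 3 remained called (adjusted p 0.00178, 5.63e-06 and 2.49e-06).

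**Figure D1:**
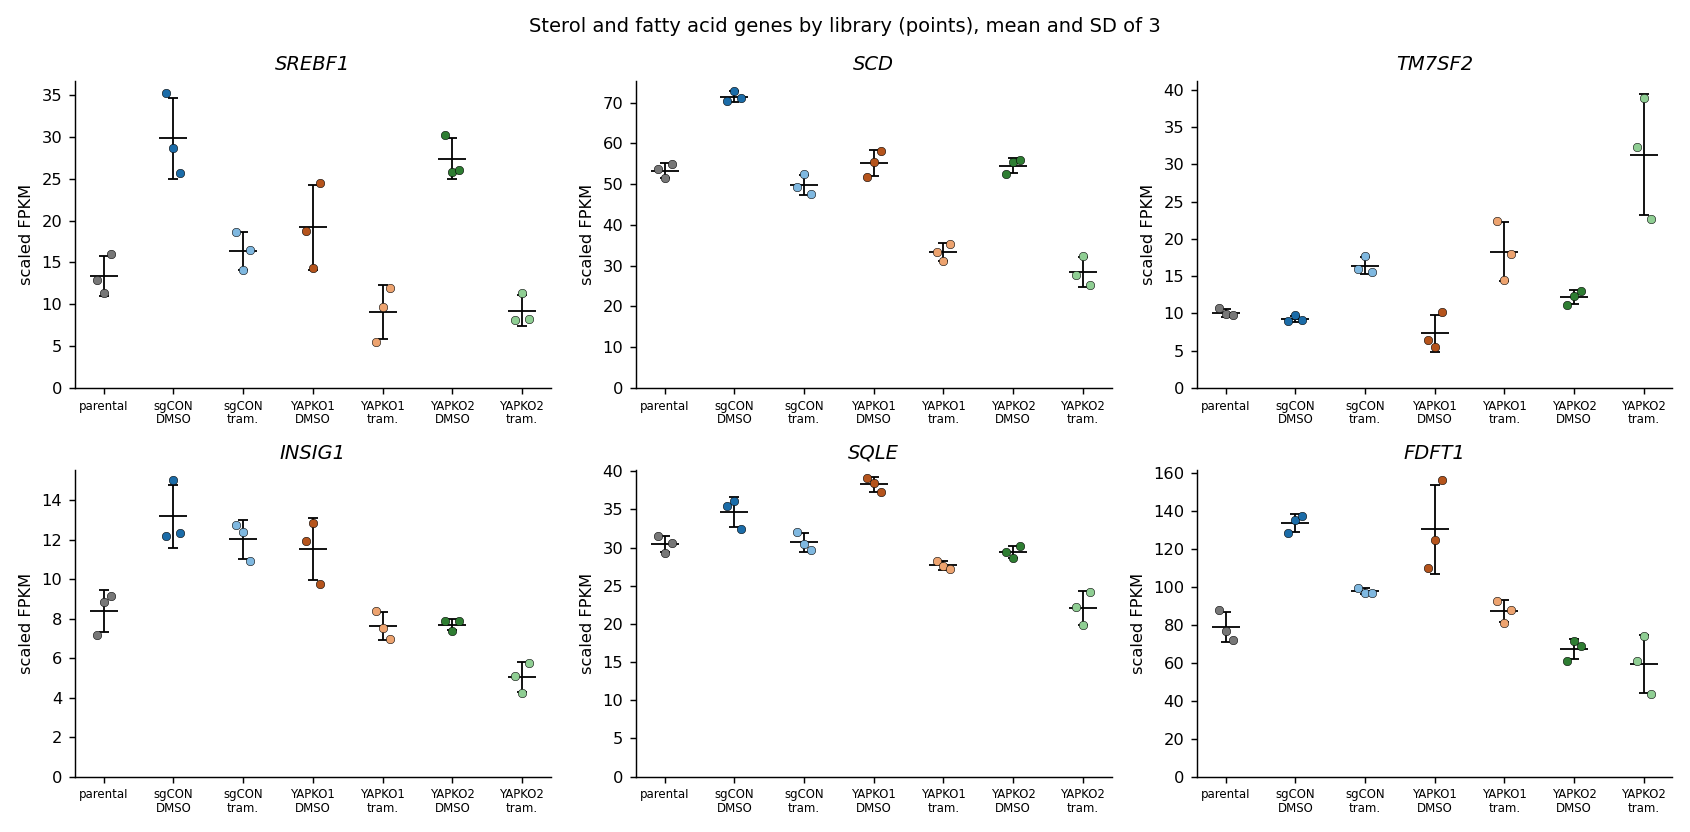
Scaled FPKM (vertical axis, from 0) of SREBF1, SCD, TM7SF2, INSIG1, SQLE and FDFT1 in each of the 21 libraries, as 1 point per library with the mean and SD of 3, by group (horizontal axis). SREBF1 and SCD were lower and TM7SF2 higher with trametinib in all 3 lines, with no overlap.

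SQLE and INSIG1 were lower with trametinib in both knockout lines. SQLE, squalene epoxidase, was 39.1, 38.5 and 37.2 FPKM with DMSO and 28.2, 27.6 and 27.1 with trametinib in YAPKO1 (log2 change -0.46 ± 0.08, adjusted p 0.00132). In YAPKO2 it was 29.4, 28.6 and 30.3 with DMSO and 22.2, 19.8 and 24.2 with trametinib (-0.41 ± 0.08, adjusted p 0.00141). In sgCON it was 35.5, 36.1 and 32.4 with DMSO and 32.1, 30.4 and 29.6 with trametinib, which did not pass the test. In all 3 lines each trametinib library lay below each DMSO library. INSIG1, which retains SCAP in the endoplasmic reticulum, was 11.9, 12.9 and 9.78 FPKM with DMSO and 8.38, 7.53 and 6.95 with trametinib in YAPKO1 (-0.56 ± 0.14, adjusted p 0.0157). In YAPKO2 it was 7.87, 7.38 and 7.87 with DMSO and 5.12, 4.23 and 5.77 with trametinib (-0.58 ± 0.14, adjusted p 0.00584). In sgCON it was 12.2, 15 and 12.3 with DMSO and 12.7, 12.4 and 10.9 with trametinib, and these groups overlapped. The YAPKO1 call of INSIG1 was lost without DMSO library 1 or 2 or trametinib library 3 (adjusted p 0.056, 0.081 and 0.0774). Fitted on the groups compared alone, the calls of both genes were lost in both knockout lines (adjusted p 0.0983 to 0.149).

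Without GC correction, the remaining calls with trametinib were made in 1 line each. In YAPKO1 these were FDFT1 (squalene synthase), which went from 110, 125 and 156 to 92.6, 81.0 and 88.0 FPKM (-0.56 ± 0.15, adjusted p 0.0295), MSMO1 (sterol C4-methyl oxidase, -0.52 ± 0.14, adjusted p 0.0285) and HSD17B7 (3-ketosterol reductase, -0.55 ± 0.14, adjusted p 0.0245). In YAPKO2 they were DHCR7 (7-dehydrocholesterol reductase), which went from 11.0, 12.3 and 9.58 to 7.04, 8.49 and 4.39 FPKM (-0.72 ± 0.21, adjusted p 0.0201), FADS1 (delta-5 desaturase, -0.47 ± 0.12, adjusted p 0.0109), ACAT2 (acetyl-CoA acetyltransferase, -0.40 ± 0.12, adjusted p 0.0277) and FDPS (farnesyl diphosphate synthase, -0.49 ± 0.16, adjusted p 0.0426). Each of these 7 lost its call without at least 1 library, and when fitted on the groups compared alone (adjusted p 0.098 to 0.247). FDFT1 lost it without any of the 6 except YAPKO1 DMSO 1, MSMO1 without any except DMSO 3, and HSD17B7 without DMSO 3, trametinib 1 or trametinib 3 (adjusted p 0.0717 to 0.115). DHCR7 lost it without YAPKO2 DMSO 1 or 2 or trametinib 3 (adjusted p 0.0536 to 0.077), FADS1 without trametinib 1 (adjusted p 0.0515), ACAT2 without DMSO 2, DMSO 3 or trametinib 3 (adjusted p 0.0643 to 0.143), and FDPS without any except DMSO 1 and trametinib 2 (adjusted p 0.0897 to 0.162). For FDPS the change without YAPKO2 trametinib library 3 was -0.27 in place of -0.49. With GC correction MSMO1 (adjusted p 0.0692) and HSD17B7 (adjusted p 0.109) were no longer called. It gave 8 calls on the 35 genes in sgCON, 12 in YAPKO1 and 16 in YAPKO2, beside 10.5%, 15.2% and 29.1% of all genes. FDFT1 and DHCR7 were then also called lower in sgCON, and DHCR7, FADS1 and FDPS in YAPKO1. Before correction FDFT1 in sgCON went from 128, 135 and 137 to 99.5, 96.8 and 96.9 FPKM. DHCR7 in sgCON went from 12.1, 13.9 and 17.2 to 11.3, 11.6 and 9.79. In YAPKO1 DHCR7 went from 9.71, 9.99 and 12.5 to 7.84, 6.21 and 8.94. In each of these the groups did not overlap. HSD17B7 and FDPS have near-identical pseudogene copies, and how reads were shared with these is not given in the sources used here, so their levels are uncertain.

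FASN, ACLY, HMGCS1 and SREBF2 had no call with trametinib in any line without GC correction. FASN, fatty acid synthase, stood at 35.3, 37.2 and 36.1 FPKM in sgCON with DMSO and 40.1, 35.3 and 42.5 with trametinib. ACLY, which makes cytosolic acetyl-CoA, stood at 128, 132 and 134 with DMSO and 127, 123 and 128 with trametinib. SREBF2, whose product mainly drives cholesterol genes, was 14.3, 13.0 and 15.2 with DMSO and 14.0, 11.6 and 11.6 with trametinib in sgCON. In the knockout lines its log2 change was -0.46 and -0.39 (adjusted p 0.152 and 0.149), and with GC correction -0.56 and -0.51 (adjusted p 0.00127 and 0.00116). In YAPKO1, FASN was 27.0, 36.2 and 49.8 with DMSO and 34.2, 28.8 and 35.1 with trametinib, and in YAPKO2 37.8, 49.1 and 40.5 with DMSO and 37.7, 45.6 and 28.3 with trametinib, with overlap in both lines. ACLY in YAPKO2 was 143, 177 and 164 with DMSO and 196, 245 and 156 with trametinib. With GC correction HMGCS1 was called lower in YAPKO1 (-0.61, adjusted p 0.00198) and YAPKO2 (-0.42, adjusted p 0.0129), and in YAPKO2 FASN was called lower (-0.37, adjusted p 0.0181) and ACLY higher (0.24, adjusted p 0.0186). The calls on these 4 genes therefore depend on that correction. In sgCON, 0 of the 7 mevalonate enzymes were called by limma, and 0 had an unadjusted p under 0.05.

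ABCA1, ABCG1 and MYLIP, the LXR-linked genes apart from the receptor NR1H2 itself, fell with trametinib in sgCON. ABCA1 (ENSG00000165029.11), the pump that loads cholesterol onto apolipoprotein, went from 2.35, 2.03 and 1.85 to 0.829, 1.13 and 0.816 FPKM (-0.86 ± 0.17, adjusted p 0.00508). ABCG1 (ENSG00000160179.14), which exports sterol to lipoprotein particles, went from 7.55, 6.65 and 7.08 to 3.63, 2.86 and 2.77 (-1.09 ± 0.22, adjusted p 0.00542). MYLIP (ENSG00000007944.10), a ligase that marks lipoprotein receptors for degradation, went from 8.25, 9.13 and 8.88 to 4.13, 4.87 and 5.35 (-0.81 ± 0.12, adjusted p 0.000383). For none of the 3 did the groups overlap, and all 3 calls were kept without any single library. The levels of ABCA1 lie close to the expression filter.

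In the knockout lines these 3 genes had lower means with DMSO than in sgCON, and limma called none of them with trametinib (0 and 1 at an unadjusted p under 0.05 in YAPKO1 and YAPKO2). MYLIP was 2.99, 2.89 and 3.03 FPKM with DMSO and 2.77, 2.62 and 3.06 with trametinib in YAPKO1. It was 2.61, 2.32 and 3.09 with DMSO and 2.35, 2.19 and 2.56 with trametinib in YAPKO2. In both knockout lines the DMSO and trametinib values of MYLIP overlapped, and all 12 lay below the lowest sgCON library. ABCA1 went from 1.13, 1.06 and 0.952 to 0.726, 0.892 and 0.880 FPKM in YAPKO1. In YAPKO2 it went from 0.800, 0.606 and 1.05 to 0.334, 0.496 and 0.499. Its groups did not overlap in either line, at levels near the pseudocount of 0.5, so the missing call does not show an absent response. ABCG1 values overlapped in both lines. The difference of the drug responses themselves was tested as an interaction term. For YAPKO2 minus sgCON, MYLIP was the 1 gene of 35 called, at 0.67 ± 0.17 on the log2 scale (adjusted p 0.0292), where 4.83% of all genes were called (1.8% higher, 3.03% lower). For YAPKO1 minus sgCON, limma called 0 of the 35 (0.249% of all genes, 0.199% higher and 0.0497% lower), with 6 at an unadjusted p under 0.05, and MYLIP differed by 0.75 ± 0.17 (adjusted p 0.0973). The sgCON libraries enter both differences. For ABCG1 the differences were 0.95 ± 0.31 and 0.86 ± 0.31 (adjusted p 0.333 and 0.138), and for ABCA1 0.64 ± 0.24 and 0.38 ± 0.24 (adjusted p 0.454 and 0.472). The YAPKO2 call of MYLIP was lost without sgCON DMSO 2 or 3, sgCON trametinib 1 or 2, YAPKO2 DMSO 1 or 2, or YAPKO2 trametinib 1 (adjusted p 0.0534 to 0.0867), and with quantile normalization, the calibrated table or the groups compared alone (0.0626 to 0.105). With GC correction MYLIP was called in both differences (adjusted p 0.0317 for YAPKO1 and 0.00725 for YAPKO2), where 1 and 8 of the 35 genes were called, beside 0.992% and 10.9% of all genes. The responses of SREBF1, SCD and TM7SF2 were not called as different between lines. For YAPKO2 minus sgCON they differed by -0.69 ± 0.33 (adjusted p 0.312), -0.41 ± 0.13 (0.0733) and 0.51 ± 0.28 (0.403). The SCD difference was called with GC correction (-0.38, adjusted p 0.0118).

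Against sgCON with DMSO, MYLIP, ABCA1 and SCD were lower in both knockout lines and ABCG1 in YAPKO1, while NR1H2 was called in neither. In YAPKO1, 4 of the 35 genes were lower and 0 higher, where 12.0% of all genes were called (6.18% higher, 5.81% lower). They were ABCG1, at 0.862, 0.687 and 1.48 FPKM (-2.36 ± 0.22, adjusted p 1.03e-06), MYLIP (-1.41 ± 0.12, adjusted p 3.83e-07), ABCA1, at 1.13, 1.06 and 0.952 FPKM (-0.73 ± 0.17, adjusted p 0.00869), and SCD (-0.37 ± 0.09, adjusted p 0.0103). The share of the 35 called, 11.4%, lay near that of all genes. In YAPKO2, MYLIP changed by -1.55 ± 0.12 (adjusted p 4.95e-08), ABCA1, at 0.800, 0.606 and 1.05 FPKM, by -0.97 ± 0.17 (adjusted p 0.000445), and SCD by -0.39 ± 0.09 (adjusted p 0.00411). ABCG1 in YAPKO2 was 3.78, 4.76 and 5.37 FPKM, below every sgCON library, and was not called (-0.57, adjusted p 0.0585; -0.77 with GC correction, adjusted p 0.00307). Fitted on the groups compared alone, ABCA1 (adjusted p 0.0697) and SCD (adjusted p 0.0715) in YAPKO1 were no longer called. Both comparisons share the 3 sgCON libraries. The parental levels of MYLIP, ABCA1 and SCD, given below, lay near those of the knockout lines.

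**Figure D2:**
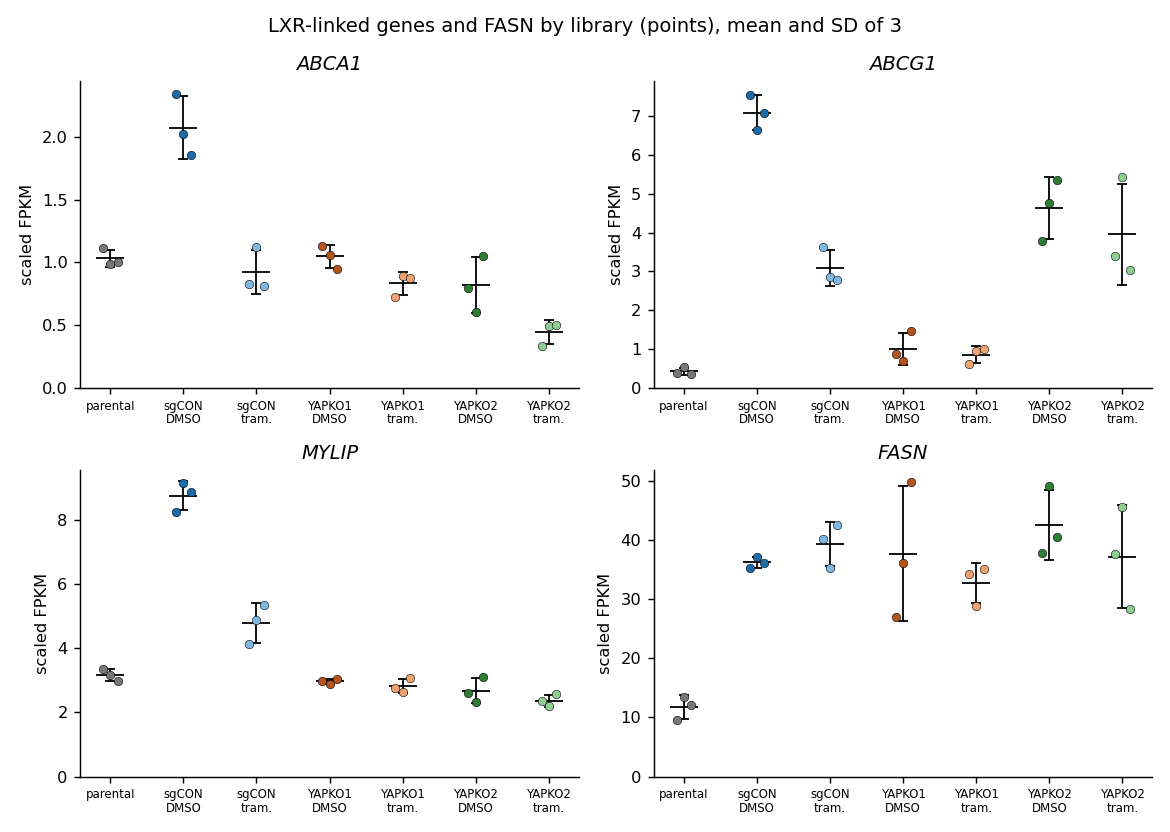
Scaled FPKM (vertical axis, from 0) of ABCA1, ABCG1, MYLIP and FASN in each of the 21 libraries, as 1 point per library with the mean and SD of 3, by group (horizontal axis). ABCA1, ABCG1 and MYLIP were highest in sgCON with DMSO, and FASN was lowest in the parental line.

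In YAPKO2 with DMSO, 10 of the 35 genes were lower than in sgCON and 2 were higher, where 27.1% of all genes were called (14.1% higher, 13.1% lower). Of the 7 mevalonate enzymes 2 were lower and 1 higher (median log2 change 0.14), and of the 11 sterol enzymes 3 were lower and 1 higher (median -0.14). HMGCS1 (ENSG00000112972.10), which makes HMG-CoA, was 39.7, 39.6 and 38.2 FPKM in sgCON and 16.3, 13.3 and 15.1 in YAPKO2 (-1.37 ± 0.25, adjusted p 0.000659). IDI1, isopentenyl diphosphate isomerase, was 46.6, 49.4 and 36.9 in sgCON and 25.1, 16.9 and 24.1 in YAPKO2 (-1.0 ± 0.32, adjusted p 0.0277). FDFT1 was 128, 135 and 137 in sgCON and 61.1, 71.6 and 68.8 in YAPKO2 (-0.99 ± 0.15, adjusted p 0.00014). In all 3 genes the groups did not overlap. INSIG1 (-0.73 ± 0.14, adjusted p 0.000735), MSMO1 (-0.60 ± 0.14, adjusted p 0.00432) and SQLE (-0.23 ± 0.08, adjusted p 0.0399) were also lower. Parental levels were 7.16, 8.86 and 9.15 FPKM for INSIG1 and 31.5, 29.3 and 30.5 for SQLE, which overlapped those of YAPKO2. Parental FDFT1, at 87.7, 76.8 and 72.0, lay between YAPKO2 and sgCON. For HMGCS1, IDI1, MSMO1 and ELOVL6 every YAPKO2 library with DMSO lay below every parental library. ELOVL6, which lengthens palmitate, was 18.1, 16.7 and 18.6 in sgCON and 7.44, 3.78 and 5.80 in YAPKO2 (-1.61 ± 0.38, adjusted p 0.00487). PMVK, phosphomevalonate kinase, was higher, at 20.6, 19.6 and 23.6 in sgCON and 34.8, 45.4 and 36.3 in YAPKO2 (0.85 ± 0.19, adjusted p 0.00345), as was EBP, a sterol isomerase (0.57 ± 0.19, adjusted p 0.0315). EBP lost its call without any 1 of the 6 libraries (adjusted p 0.0501 to 0.127), SQLE without any except sgCON DMSO 3 (0.066 to 0.136), and IDI1 without sgCON DMSO 1 or 2 or YAPKO2 DMSO 2 (0.0764 to 0.128). With no filter IDI1 (0.0591) and EBP (0.061) were not called, and SQLE was not called with quantile normalization (0.0909) or the calibrated table (0.0996).

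The GC trend moved with several of these genes. HMGCS1 (40.2% GC), IDI1 (41.1%), ELOVL6 (41.2%) and MSMO1 (38.1%) are GC-poor and PMVK (59.5%) is GC-rich, against a median of 48.1% over protein-coding genes tested. With GC correction the YAPKO2 changes with DMSO were -1.01 for HMGCS1 (adjusted p 5.27e-06), -0.69 for IDI1 (0.0168), -1.31 for ELOVL6 (0.00237), 0.58 for PMVK (0.000557) and -0.16 for MSMO1 (0.388). MSMO1 was thus the 1 of the 12 calls that the correction removed. FDFT1, at 48.6% GC, changed by -1.10 (adjusted p 1.34e-06). The correction brought the calls to 17 of 35, beside 31.9% of all genes, by adding 6: CYP51A1, a sterol demethylase, was higher (0.58, adjusted p 6.43e-05), and ACAT2, NR1H2, NSDHL, ABCG1 and DHCR7 were lower. Within YAPKO1 with DMSO, library 3 had the GC trend that stood apart, and HMGCS1 was 33.9, 30.9 and 18.6 FPKM there, IDI1 41.3, 41.3 and 21.6, and STARD4, a sterol carrier at 34.2% GC, 75.2, 61.3 and 33.8. How much of the difference between these libraries lies in the GC trend was not tested. Without YAPKO1 DMSO library 3 and YAPKO2 trametinib library 2, the libraries with the highest GC trend in their groups (a setting chosen after seeing the data), 19 of the 35 genes were called in YAPKO2 with DMSO and 7 in YAPKO1 with DMSO, beside 38.8% and 10.8% of all genes.

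**Figure D3:**
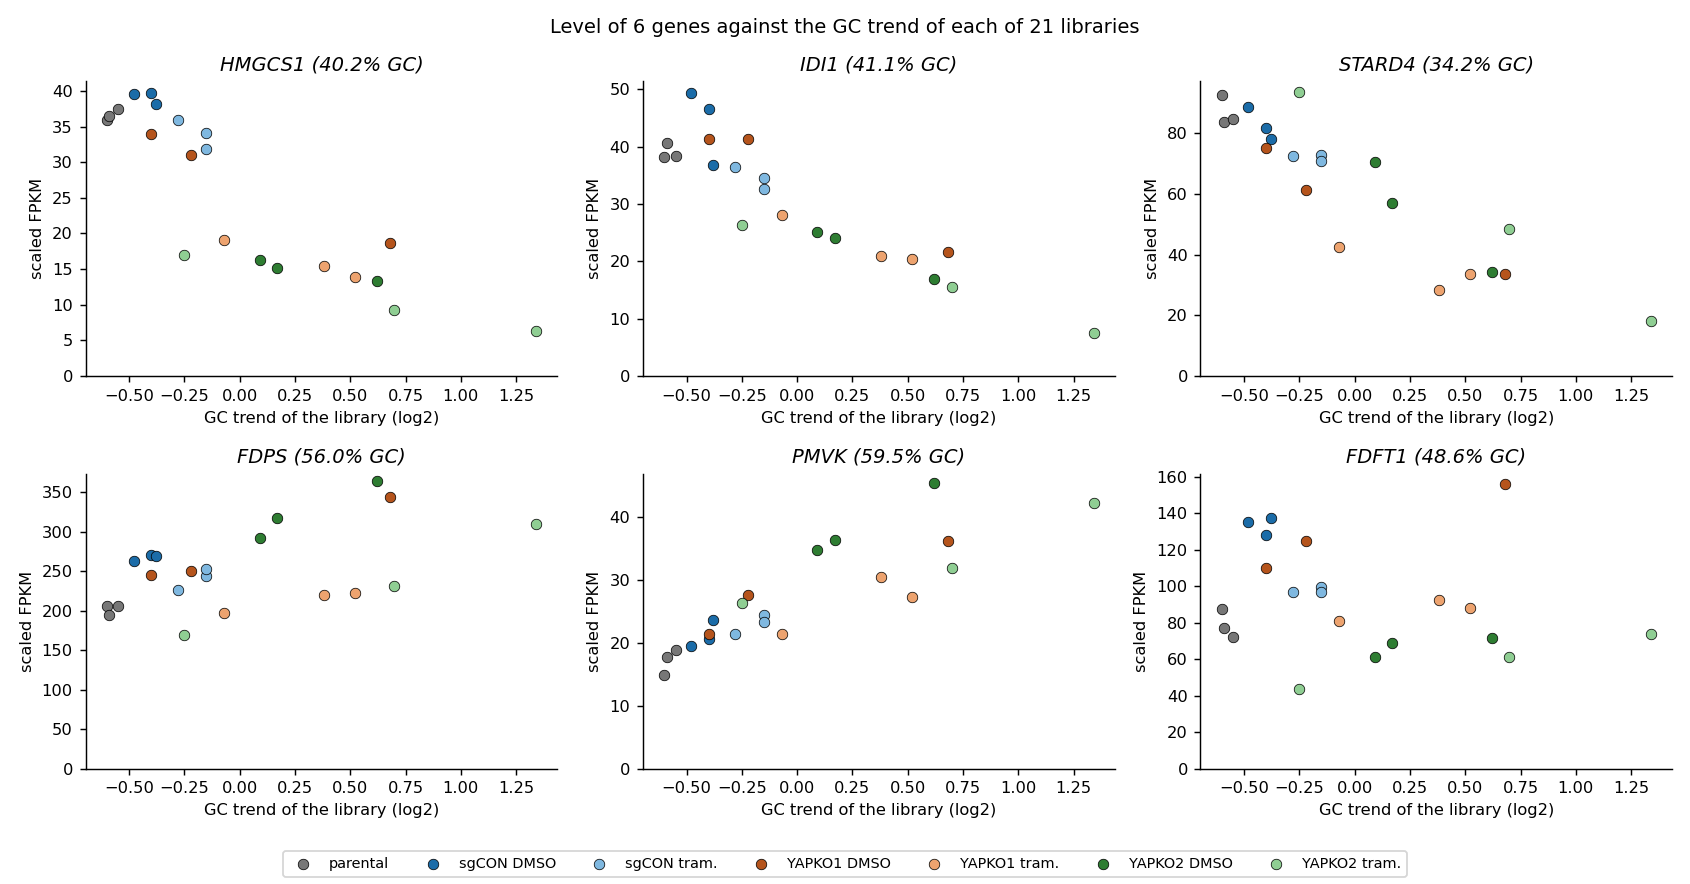
Scaled FPKM (vertical axis, from 0) of HMGCS1, IDI1, STARD4, FDPS, PMVK and FDFT1 against the GC trend of the library (horizontal axis, log2), with 1 point for each of the 21 libraries coloured by group. HMGCS1 and IDI1 were lower and PMVK higher in libraries with a higher GC trend. FDFT1 was 61.1 to 71.6 FPKM in YAPKO2 with DMSO and 128 to 137 in sgCON with DMSO. It was 96.8 to 99.5 in sgCON with trametinib, and 72.0 to 87.7 in the parental libraries, which had the lowest GC trend.

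With trametinib present, YAPKO2 differed from sgCON in 18 of the 35 genes, 4 higher and 14 lower, where 36.3% of all genes were called (17.7% higher, 18.7% lower). All 10 genes that were lower with DMSO were lower here too. HMGCS1 was 34.1, 36 and 31.8 FPKM in sgCON and 9.23, 6.36 and 17.0 in YAPKO2 (-1.71 ± 0.25, adjusted p 5.19e-05), and ELOVL6 was 14.2, 18.2 and 15.4 against 6.02, 1.41 and 5.33 (-1.97 ± 0.38, adjusted p 0.000676). INSIG1 (-1.18 ± 0.14, adjusted p 3.79e-06), FDFT1 (-0.75 ± 0.15, adjusted p 0.0011) and SCD (-0.80 ± 0.09, adjusted p 2.67e-06) were lower, with no overlap between groups. SREBF1 (-0.81 ± 0.24, adjusted p 0.0136) and ACAT2 (-0.71 ± 0.12, adjusted p 0.000226) were lower as well. TM7SF2 (0.88 ± 0.20, adjusted p 0.00257) and ACLY, at 127, 123 and 128 against 196, 245 and 156 FPKM (0.63 ± 0.14, adjusted p 0.00201), were higher. MVK, mevalonate kinase (0.60 ± 0.17, adjusted p 0.0115), and PMVK (0.51 ± 0.19, adjusted p 0.0467) were also higher. In a fit of the groups compared alone, IDI1, MVK, FADS1, DHCR7, PMVK and MSMO1 were not called (adjusted p 0.0757 to 0.188). ABCA1, called with all groups, did not reach the expression filter in that fit and was not tested. This left 11 calls beside 19.2% of all genes. Without YAPKO2 trametinib library 2, which had the highest GC trend, the MVK change was 0.41 (adjusted p 0.0781) and the PMVK change 0.33 (adjusted p 0.237), and IDI1 changed by -0.75 in place of -1.21. With GC correction PMVK was not called (0.17, adjusted p 0.22), and MSMO1 turned from -0.39 (adjusted p 0.0354) to 0.07 (adjusted p 0.725). SREBF1 lost its call without sgCON trametinib 1 or YAPKO2 trametinib 1 (adjusted p 0.0554 and 0.0548), and ABCA1 and FADS1 without sgCON trametinib 2 or YAPKO2 trametinib 1 (0.0556 to 0.0879). PMVK lost it without any library except YAPKO2 trametinib 3, and MSMO1 without sgCON trametinib 1 or 2 or YAPKO2 trametinib 1 or 2 (0.0637 to 0.185). Without YAPKO2 trametinib library 3 the DHCR7 change was -0.46 (adjusted p 0.0523) in place of -0.72 (adjusted p 0.0122).

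In YAPKO1 with trametinib, 1 gene was higher and 6 were lower than in sgCON, where 15.0% of all genes were called (7.81% higher, 7.18% lower). ABCG1, at 3.63, 2.86 and 2.77 FPKM in sgCON and 0.609, 0.940 and 1.01 in YAPKO1, changed by -1.41 ± 0.22 (adjusted p 0.000246). HMGCS1, at 15.4, 19.1 and 13.8 in YAPKO1, changed by -1.07 ± 0.25 (adjusted p 0.00788), and by -0.82 with GC correction (adjusted p 8.27e-05). SCD (-0.58 ± 0.09, adjusted p 0.000247), MYLIP (-0.67 ± 0.12, adjusted p 0.00105) and INSIG1 (-0.63 ± 0.14, adjusted p 0.00461) were lower, and these 5 calls were kept without any single library. SREBF1 was lower (-0.88 ± 0.24, adjusted p 0.0188) but not without sgCON trametinib 1 or 3 (adjusted p 0.0779 and 0.0534), and without YAPKO1 trametinib 1 its change was -0.57 (adjusted p 0.111). CYP51A1 was higher, at 30.2, 29.3 and 28.7 FPKM in sgCON and 39.0, 39.5 and 35.7 in YAPKO1 (0.36 ± 0.11, adjusted p 0.0367), which did not hold when any 1 of the 6 libraries was left out (adjusted p 0.0542 to 0.106).

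The knockout lines also differed from each other. With DMSO, 2 of the 35 genes were higher and 4 lower in YAPKO2 than in YAPKO1, where 6.97% of all genes were called (3.74% higher, 3.23% lower). ABCG1 was higher in YAPKO2 (1.79 ± 0.22, adjusted p 3.32e-05), at 3.78 to 5.37 FPKM against 0.687 to 1.48. FDFT1 (-0.94 ± 0.15, adjusted p 0.000666) and SQLE (-0.37 ± 0.08, adjusted p 0.00647) were lower. FDFT1 in YAPKO1, at 110, 125 and 156 FPKM, thus lay around the sgCON level and in YAPKO2 below it. TM7SF2 (0.74 ± 0.20, adjusted p 0.0323), INSIG1 (-0.54 ± 0.14, adjusted p 0.0184) and MSMO1 (-0.48 ± 0.14, adjusted p 0.0431) were called as well. TM7SF2 lost its call without any library except YAPKO1 DMSO 3 (adjusted p 0.0566 to 0.174), INSIG1 without YAPKO1 DMSO 1 or 2 or YAPKO2 DMSO 2 or 3 (0.0502 to 0.0999), and MSMO1 without YAPKO1 DMSO 1 or 2 or YAPKO2 DMSO 1 or 2 (0.109 to 0.181). In a fit of these groups alone, SQLE (0.14), INSIG1 (0.121), TM7SF2 (0.155) and MSMO1 (0.157) were not called, which left 2 of the 35 beside 2.70% of all genes. With GC correction MSMO1 was not called (0.171). Without YAPKO1 DMSO 3 and YAPKO2 trametinib 2 together, 13 of the 35 were called, beside 16.1% of all genes.

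**Figure D4:**
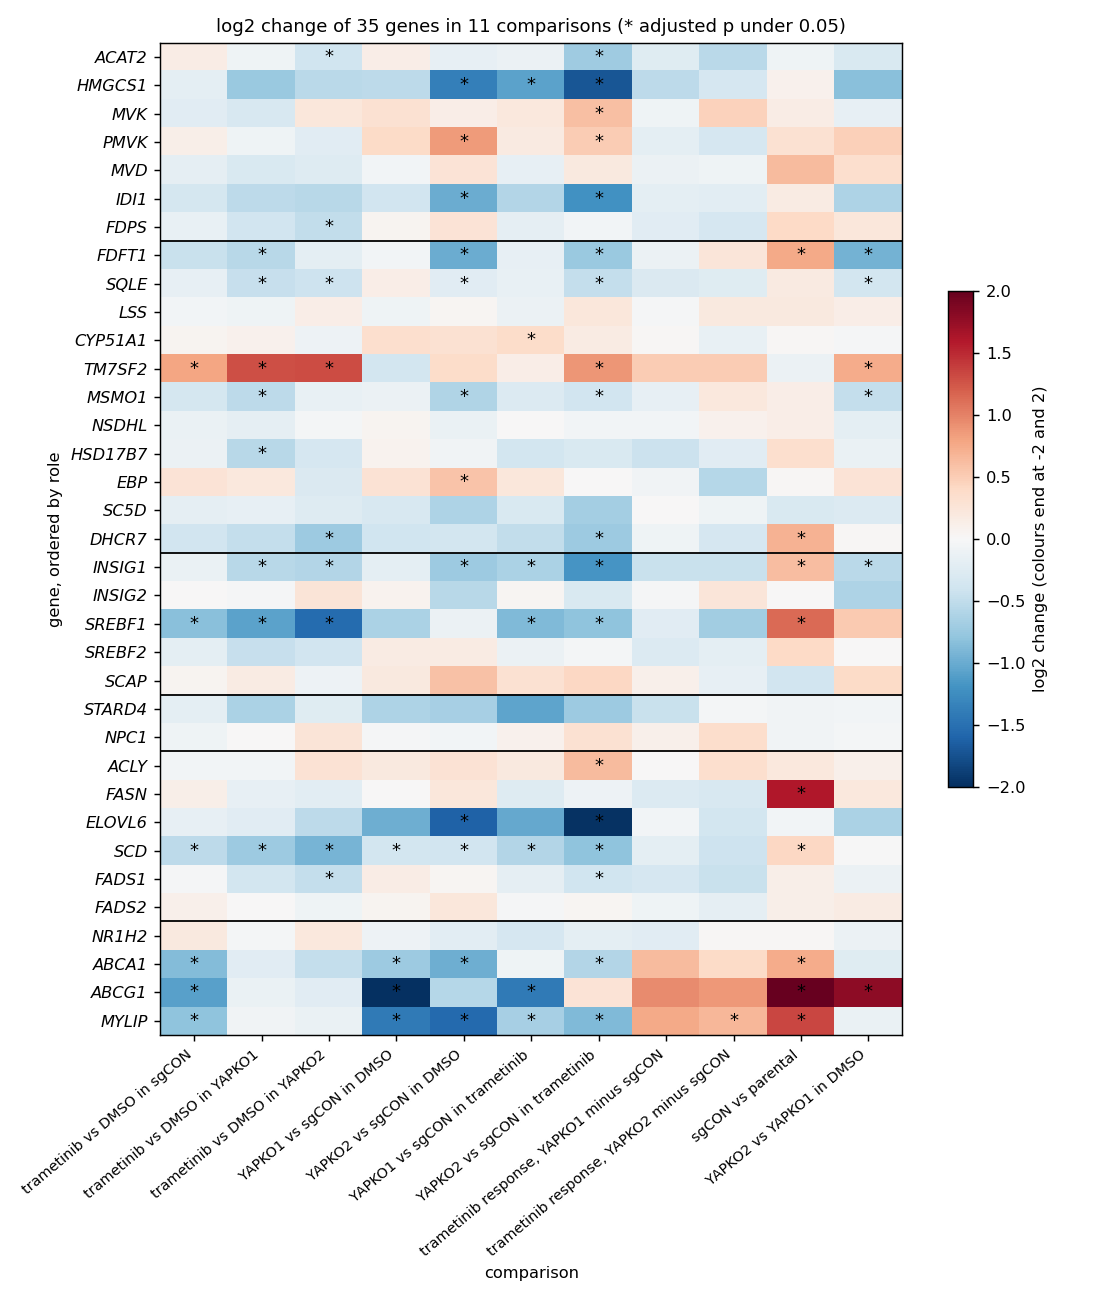
The log2 change (colour, ending at -2 and 2) of the 35 genes (rows, by role, with lines between the role groups) in 11 comparisons (columns), where a star marks an adjusted p under 0.05. TM7SF2 is the gene called higher, and SREBF1 and SCD the genes called lower, with trametinib in all 3 lines.

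The sgCON line itself differed from the parental line: 9 of the 35 genes were higher and 0 lower in sgCON with DMSO, where 15.9% of all genes were called (7.99% higher, 7.87% lower). ABCG1 stood at 0.385, 0.538 and 0.357 FPKM in the parental line and 7.55, 6.65 and 7.08 in sgCON (3.04 ± 0.22, adjusted p 8.33e-08). FASN (ENSG00000169710.6) stood at 9.57, 13.5 and 12.1 in the parental line and 35.3, 37.2 and 36.1 in sgCON (1.60 ± 0.20, adjusted p 2.71e-05). SREBF1 was 13.0, 11.3 and 16 in the parental line, below each sgCON DMSO library (1.13 ± 0.24, adjusted p 0.0033). MYLIP, at 3.35, 3.15 and 2.99 FPKM, and ABCA1, at 1.11, 0.990 and 1.00, were also below sgCON, by 1.34 ± 0.12 (adjusted p 9.6e-07) and 0.74 ± 0.17 (adjusted p 0.00586). FDFT1 (0.76 ± 0.15, adjusted p 0.00229), INSIG1 (0.62 ± 0.14, adjusted p 0.00408) and SCD (0.42 ± 0.09, adjusted p 0.00345) were higher in sgCON. DHCR7 was too (0.70 ± 0.21, adjusted p 0.027), but not without parental 1 or 2 or sgCON DMSO 2 or 3 (adjusted p 0.0663 to 0.125). The parental levels of MYLIP and ABCA1 thus lay beside those of the knockout lines with DMSO, whereas FASN in YAPKO1 (27.0, 36.2 and 49.8) and YAPKO2 (37.8, 49.1 and 40.5) lay beside sgCON. The same 3 sgCON DMSO libraries enter this comparison, the knockout comparisons with DMSO and the drug comparison in sgCON. Treatment of the parental cells is uncertain, so line and handling cannot be told apart.

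Of the 35 genes, 24 were called in at least 1 of the 11 comparisons and 11 in none: MVD, LSS, NSDHL, SC5D, INSIG2, SREBF2, SCAP, STARD4, NPC1, FADS2 and NR1H2. Their levels ranged widely. STARD4 stood at 18.2 to 93.5 FPKM over the 21 libraries and FADS2, delta-6 desaturase, at 99.4 to 175. NPC1, which moves cholesterol out of lysosomes, stood at 5.72 to 9.10, and SREBF2 at 8.01 to 18.5. A missing call does not show that a level was the same. STARD4 with trametinib was 72.9, 72.5 and 70.8 in sgCON and 28.2, 42.6 and 33.7 in YAPKO1, with no overlap (-1.06, adjusted p 0.092), and with GC correction it was called there (-0.79, adjusted p 0.0108). In YAPKO2 with trametinib STARD4 was 48.4, 18.2 and 93.5 FPKM, its widest spread in any group.

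Of 45 other genes of the same pathways, 41 were tested. With trametinib, sgCON had 0 higher and 1 lower, YAPKO1 had 1 higher and 5 lower, and YAPKO2 had 1 higher and 8 lower. These were 2.44%, 14.6% and 22% of the 41, beside 5.22%, 7.86% and 20.1% of all genes. ACSL1, which activates long-chain fatty acids, was the one lower in all 3 lines (-0.56 ± 0.11, -0.78 ± 0.11 and -1.05 ± 0.11, adjusted p 0.00415, 0.000168 and 3.34e-06). SOAT1, which esterifies cholesterol, and ELOVL5, an elongase of polyunsaturated fatty acids, were lower in both knockout lines (SOAT1 -0.47 and -0.85, ELOVL5 -0.39 and -0.73), and NPC2, the lysosomal partner of NPC1, was higher (0.60 and 0.68). For the drug response in YAPKO2 minus sgCON, SOAT1 (-0.96 ± 0.17, adjusted p 0.00306), ERLIN1, which takes part in degrading sterol-regulated proteins (-0.81 ± 0.11, adjusted p 0.000422), and ELOVL5 (-0.47 ± 0.12, adjusted p 0.0333) were called. Against sgCON with DMSO, YAPKO1 had 2 higher and 3 lower, and YAPKO2 had 3 higher and 6 lower, which was 12.2% and 22% of the 41 beside 12.0% and 27.1% of all genes. SCD5, a second stearoyl-CoA desaturase, was higher in both (0.69 ± 0.12 and 1.13 ± 0.12, adjusted p 0.000971 and 2.35e-06), while SCD was lower in both. ACSL3, another acyl-CoA synthetase, was lower in both (-1.10 ± 0.25 and -1.53 ± 0.25, adjusted p 0.00829 and 0.000275), as was SMPDL3A, an LXR-regulated phosphodiesterase (-1.07 ± 0.25 and -1.30 ± 0.25, adjusted p 0.00953 and 0.00115). ACSL3 (38.1% GC) and SMPDL3A (41.2% GC) are GC-poor, and the share of the GC trend in their changes was not tested.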

How the data were processed

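Stranded total RNA libraries of NLF cells were made after removal of ribosomal RNA, per the labels' protocols. The submitters' processing notes name STAR 2.4.2, RSEM 1.3.0 and the build hg19; filters, annotation and the strand setting are not given in the sources used here. The authors deposited FPKM values in 2 tables that differ by 1 factor per library (0.927 to 1.075); no counts were used, so depth is not known directly. Low values gave a relative depth of 0.774 to 1.68 times that of parental library 1, and 13728 to 14425 genes per library reached 1 FPKM.

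The uncalibrated FPKM values were scaled by median-ratio factors (0.961 to 1.06), filtered (FPKM of at least 1 in 3 or more libraries), transformed as log2(FPKM + 0.5) and tested with limma 3.58.1 in R 4.3.3 (empirical Bayes with trend, all 21 libraries, two-sided, Benjamini-Hochberg over 16090 genes). The FPKM printed are scaled, and libraries are given in the order 1, 2, 3. Parental columns were matched by their headings, which name DMSO and a replicate but no line. The script was tested on simulated data. GC content came from the longest GENCODE transcript of each gene on GRCh38, and the GC correction removed a spline of 5 degrees of freedom per library (15520 genes). The members and lists were chosen with earlier results of these data known. Values in full were given for called members with the largest changes in their role group (up to 4 per comparison) and for 6 fixed genes (ABCA1, INSIG1, SREBF1, SREBF2, SCD and FASN), and other pathway genes were named only where called, up to 2 per list and comparison. Alternatives covered the pseudocount, filter, scaling, table, GC correction, replicate block, groups fitted and each library left out. No label says whether replicate numbers pair the samples, and the main fit used no pairing.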

Additional observations from a re-analysis of the deposited data

Results flagged for a closer look

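The response of MYLIP to trametinib differed between YAPKO2 and sgCON by 0.67 ± 0.17 on the log2 scale (limma interaction term, adjusted p 0.0292). Means went from 8.75 to 4.78 FPKM in sgCON and from 2.67 to 2.37 in YAPKO2, and its level in YAPKO2 with DMSO was already below the trametinib level of sgCON.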

How the results depend on the processing

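Of the 80 calls on the 35 genes over the 11 comparisons, 53 were kept without any single library and 43 under every alternative setting. The cause of the changes that follow was not tested. Fitted on the groups compared alone, with fewer samples behind the spread, the number of the 35 genes called was 1 and 3 for trametinib in YAPKO1 and YAPKO2, 2 and 20 for YAPKO1 and YAPKO2 against sgCON with DMSO, 11 and 11 for the same lines with trametinib, 0 for the response of YAPKO2 minus sgCON and 2 for YAPKO2 against YAPKO1. In the same order these stood beside 1.79%, 5.66%, 5.93%, 43.8%, 24.6%, 19.2%, 2.86% and 2.70% of all genes. For trametinib in sgCON the number was 8, where 2649 of all genes were called. With GC correction it was 16 for trametinib in YAPKO2, 9 for YAPKO1 with DMSO, 14 for YAPKO1 with trametinib, 1 and 8 for the responses of YAPKO1 and YAPKO2 minus sgCON, and 14 for sgCON against parental, beside 29.1%, 19.4%, 22.7%, 0.992%, 10.9% and 25.4% of all genes. With GC correction MSMO1 in YAPKO2 against sgCON with trametinib turned to 0.07. Quantile normalization and the calibrated table each gave 0 for the response of YAPKO2. Without YAPKO1 DMSO 3 and YAPKO2 trametinib 2, a setting chosen after seeing the data, it was 7 and 19 for YAPKO1 and YAPKO2 with DMSO, 6 for the response of YAPKO2 and 13 for YAPKO2 against YAPKO1, beside 10.8%, 38.8%, 7.40% and 16.1% of all genes.

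No label says that replicate numbers mark a shared day or culture, and in 0 of 21 pairs of groups did all 3 same-numbered pairs correlate over 0.1. With the replicate number as a block, the counts were 5, 7 and 8 for trametinib in sgCON, YAPKO1 and YAPKO2, 4 and 11 for YAPKO1 and YAPKO2 with DMSO, 6 and 16 with trametinib, 0 and 1 for the responses, 9 for sgCON against parental and 4 for YAPKO2 against YAPKO1. Of all genes, the block fit called 6.53% and 17.7% for trametinib in YAPKO1 and YAPKO2. For trametinib in sgCON the share was 5.22% without the block, and that with the block is not given here. The block fit called 10.3% and 24.0% for YAPKO1 and YAPKO2 against sgCON with DMSO, and 12.7% and 33.8% with trametinib. For the responses the shares were 0.118% and 3.58%, for sgCON against parental 14.3%, and for YAPKO2 against YAPKO1 5.96%. The block ended the calls of SREBF1 with trametinib in sgCON (adjusted p 0.0659), MSMO1 in YAPKO1 (0.0501), FDPS in YAPKO2 (0.064), SQLE in YAPKO2 with DMSO (0.0563), CYP51A1 in YAPKO1 with trametinib (0.0584), MSMO1 and PMVK in YAPKO2 with trametinib (0.0533 and 0.0607), and MSMO1 and TM7SF2 in YAPKO2 against YAPKO1 (0.0735 and 0.0571), and changed no other call on the 35 genes that was made without it. With the replicate block and GC correction together the counts were 15 for trametinib in YAPKO2, 9 for YAPKO1 with DMSO, 12 for YAPKO1 with trametinib, 1 and 5 for the responses and 14 for sgCON against parental, and MSMO1 turned to 0.07 as above. In the same order these counts stood beside 27.6%, 18.0%, 21.1%, 0.735%, 9.77% and 24.5% of all genes.

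Leaving out 1 library at a time gave 4 to 4 calls for trametinib in sgCON, 4 to 7 in YAPKO1 and 7 to 10 in YAPKO2. It gave 4 to 5 and 9 to 11 for YAPKO1 and YAPKO2 with DMSO, 5 to 7 and 13 to 20 with trametinib, 0 to 0 and 0 to 2 for the responses, 8 to 9 for sgCON against parental and 3 to 8 for YAPKO2 against YAPKO1. The share of all genes called also moved, from 4.63 to 10.1% for trametinib in YAPKO1. For trametinib in sgCON and YAPKO2 it was 5.22% and 20.1% with all libraries, and its range with 1 left out is not given here. For YAPKO1 and YAPKO2 it was 7.61 to 13.2% and 16.1 to 24.0% with DMSO, and 8.83 to 13.4% and 26.3 to 49.5% with trametinib. For the responses it was 0.0687 to 0.243% and 3.08 to 7.16%, for sgCON against parental 10.5 to 11.5%, and for YAPKO2 against YAPKO1 4.75 to 8.82%.

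Over all genes tested, the groups compared alone gave 2649 calls in place of 840 for trametinib in sgCON, 255 in place of 1264 in YAPKO1 and 799 in place of 3231 in YAPKO2. They gave 833 in place of 1929 for YAPKO1 with DMSO, 2750 in place of 5842 for YAPKO2 with trametinib, 378 in place of 1121 for YAPKO2 against YAPKO1, 4914 in place of 2552 for sgCON against parental, and 8 and 434 in place of 40 and 777 for the responses. GC correction gave 1631, 2354, 3006, 1856, 3947, 154 and 1684 for trametinib in sgCON and YAPKO1, YAPKO1 with DMSO, YAPKO2 against YAPKO1, sgCON against parental and both responses. With no scaling, 839 of 1347 calls for trametinib in YAPKO1 and 1857 of 3292 in YAPKO2 were higher, in place of 640 of 1264 and 1382 of 3231, and calibrated values gave 405 of 739 in sgCON, in place of 367 of 840. Depth is known only in relative terms, so no counting error could be given.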
